A study of Mus musculus with 6 samples.

Results

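The genes described here are 10 members of the Notch pathway: the ligands Dll1, Dll3 and Jag1, the receptor-modifying enzyme Lfng, the receptors Notch1 and Notch2, and the target genes Hes1, Hes5, Hey1 and Nrarp. They were chosen by name from the 18749 genes listed in at least 1 library, with the hemin-against-vehicle differences of these same data known. The contrast between the groups therefore describes them and does not test them, and no p-value is given for a member. All 10 were counted deeply enough to enter the fit of all genes.

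RNA was sequenced from cultured oligodendrocyte progenitor cells, the proliferating glial cells that give rise to myelinating oligodendrocytes. The cells came from the cortex of wild type C57BL/6 mouse pups, labelled as postnatal day 1, were isolated with magnetic beads against CD140a, the PDGF receptor alpha, and were expanded in growth medium for 3 days. The 3 vehicle libraries came from cells given 0.25% DMSO for 12 h, and the 3 hemin libraries from cells given 50 µM hemin for the same time. No DMSO content is given for the hemin libraries. Hemin is the oxidised form of haem that is released when haemoglobin breaks down after bleeding. The labels do not say whether the 3 libraries of a group came from separate animals or cultures. Every spread below is therefore the variation between these libraries, which may be technical. Every p-value sets the difference between the groups against that variation.

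Notch signalling passes between neighbouring cells. A Delta-like or Jagged ligand on a cell binds a Notch receptor on its neighbour, the receptor is cut first at the surface and then within the membrane by gamma-secretase, and its intracellular part enters the nucleus, joins the DNA-binding protein RBPJ and Mastermind-like coactivators, and turns on target genes. The best known direct targets are Hes and Hey genes, which encode transcriptional repressors that hold down proneural factors. In the oligodendrocyte lineage the pathway is known for holding progenitors back from differentiation, with Jag1, Notch1 and Hes5 among the components described there.

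The libraries held 6339966 to 6390691 expected counts with vehicle and 6463460 to 6523639 with hemin. Log expression of the 12782 tested genes correlated across genes at 0.957 to 0.964 within vehicle, 0.94 to 0.955 within hemin and 0.885 to 0.905 between the groups. In edgeR's quasi-likelihood test, with p-values adjusted by Benjamini-Hochberg and a threshold of 0.05, 4078 of 12782 tested genes passed, which is 31.9%. Of these 2072 were higher with hemin, 16.2% of tested genes, and 2006 were lower, 15.7%. With libraries scaled by their totals alone the split became 1714 higher and 2582 lower. Pdgfra, the gene of the sorting antigen, fell 4.93-fold, from 120.0 ± 24.2 FPKM (fragments scaled by transcript length and library depth; SD, n = 3) to 23.7 ± 9.92 FPKM (edgeR adjusted p = 0.00222).

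Hemin went with lower levels of 6 Notch genes and a higher level of 1. Hes5, Dll3 and Nrarp were lower by 5.70-fold to 7.66-fold, Lfng by 3.13-fold, and Notch1 and Dll1 by 1.77-fold and 1.67-fold, whereas Jag1 was 2.46-fold higher. Hes1, Hey1 and Notch2 had overlapping values in the groups. The same 7 genes were past the edgeR threshold, 6 lower and 1 higher, beside the 15.7% and 16.2% of all tested genes that passed in those directions. The 3 hemin values lay wholly below the 3 vehicle values for 6 members and wholly above for 1, against 27.5% and 21.5% of all tested genes. Nothing is read from these shares, since the members were picked on this contrast. The median log2 fold change was -0.79 over the 10 members and 0.00 over all tested genes. In bulk libraries, fewer cells of a type and less RNA per cell cannot be told apart, and this holds for each value below. In GENCODE vM21, Dll1, Notch1, Hes5 and Nrarp overlap genes on the opposite strand, and Notch1 and Notch2 overlap genes on the same strand. These overlaps are of whole gene spans, introns included, and run from 61 to 5121 bases. Only reads from shared bases could belong to either gene. On opposite strands that depends on strandedness, which is not stated.

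**Figure D1:**
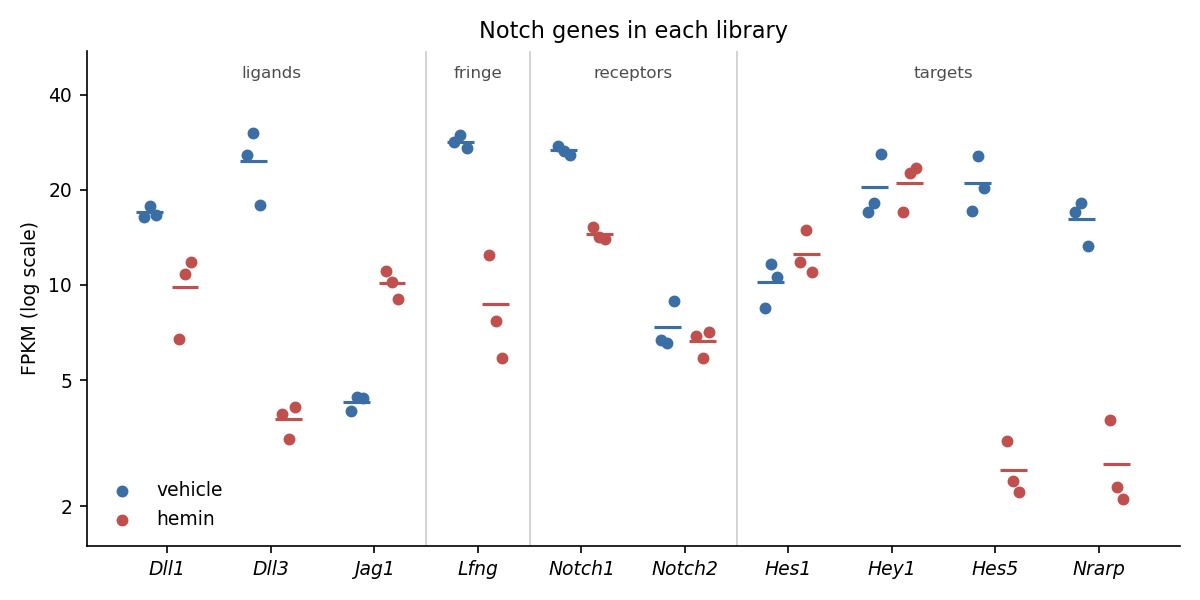
FPKM of the 10 Notch genes on a log scale, 1 point per library, with 3 vehicle and 3 hemin libraries for each gene and a bar at each group's mean. The groups are wholly apart for Dll1, Dll3, Jag1, Lfng, Notch1, Hes5 and Nrarp, and overlap for Notch2, Hes1 and Hey1.

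Of the Delta-like and Jagged ligands, Dll1 and Dll3 were the main transcripts with vehicle. Dll1, a Delta-like ligand that activates receptors on neighbouring cells, stood at 16.39, 17.80 and 16.68 FPKM in vehicle replicates 1, 2 and 3 and at 6.76, 10.86 and 11.85 FPKM in hemin replicates 1, 2 and 3. All hemin libraries were below all vehicle libraries, and hemin replicate 1 was well below the other hemin libraries. The group means were 17.0 ± 0.745 and 9.82 ± 2.70 FPKM (SD, n = 3 each), and the fitted log2 fold change was -0.74 ± 0.19 (SE). Without hemin replicate 1 it was -0.56. Dll1 was no longer past the edgeR threshold without vehicle replicate 1, 2 or 3, with log2 fold changes of -0.76, -0.70 and -0.73 in turn, which leaves 6 members past it in those fits.

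Dll3, a divergent Delta-like protein that acts largely inside the cell that makes it and does not activate receptors on neighbours, had 25.70, 30.15 and 17.91 FPKM with vehicle and 3.90, 3.27 and 4.11 FPKM with hemin. Even the lowest vehicle library was far above the highest hemin library, and the vehicle libraries were the more spread out. The means were 24.6 ± 6.20 and 3.76 ± 0.437 FPKM, with a log2 fold change of -2.65 ± 0.22. Of all tested genes, 33 had a lower log2 fold change.

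Jag1, a ligand of the Jagged class, went the other way. It measured 3.99, 4.44 and 4.39 FPKM with vehicle and 11.07, 10.24 and 9.05 FPKM with hemin. Every hemin library was above every vehicle library, and the spread within each group was small beside the gap. The means were 4.27 ± 0.247 and 10.1 ± 1.02 FPKM and the log2 fold change was 1.30 ± 0.14, with 782 tested genes higher.

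Jag1 was thus the least expressed of the 10 genes with vehicle and in the middle of the order with hemin. FPKM is scaled by transcript length, so ligands can be set side by side on it. The 5 canonical ligands together summed to 47.5 ± 6.69 FPKM with vehicle and 25.6 ± 2.22 FPKM with hemin. Dll3 made up 51.2% ± 6.15 of that sum with vehicle and 14.8% ± 2.26 with hemin. Jag1 made up 9.13% ± 1.5 and 39.9% ± 7.45. The share of Dll1 was 36.1% ± 4.49 and 37.9% ± 7.58, and its ranges overlapped. The ratio of Dll1 to Jag1 FPKM was 4.11, 4.01 and 3.8 in the vehicle libraries and 0.611, 1.06 and 1.31 in the hemin libraries. Dll1 was the more abundant of the pair in each vehicle library and Jag1 in hemin replicate 1, and the averages were 3.97 ± 0.157 and 0.994 ± 0.354.

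**Figure D2:**
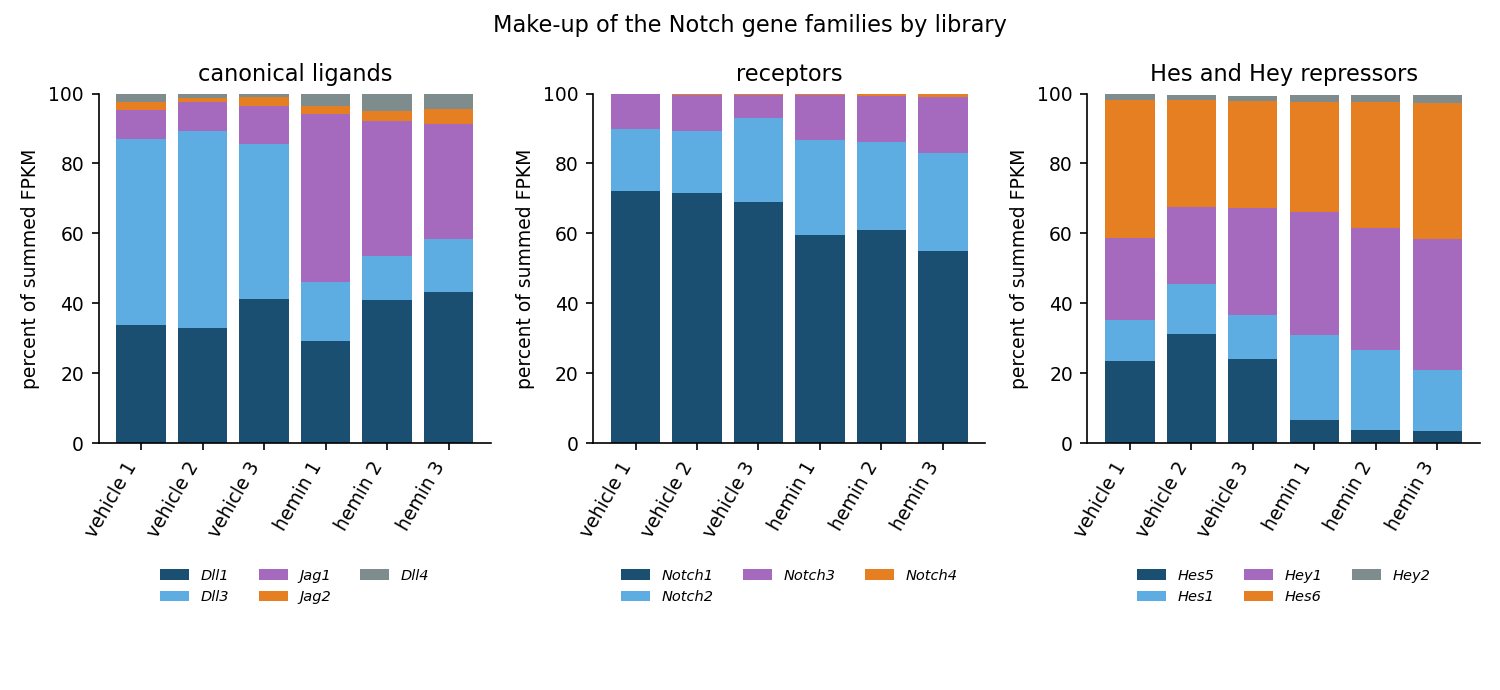
Share of the summed FPKM of each family in percent, 1 stacked bar per library, for the canonical ligands, the receptors, and the Hes and Hey repressors (Hes2, Hes3, Hes7 and Heyl are counted in the sum and not drawn). Dll3 takes 51.2% of the ligand sum with vehicle and 14.8% with hemin, and Jag1 9.13% and 39.9%. Hes5 takes 26.3% and 4.63% of the sum of all Hes and Hey genes, in which Hes6 takes 33.4% and 35.4%.

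Lfng encodes lunatic fringe, a Golgi enzyme that adds N-acetylglucosamine to fucose on Notch receptors and thereby shifts which ligands they answer to. It was the highest of the 10 genes with vehicle, at 28.39, 29.73 and 27.10 FPKM, and measured 12.48, 7.69 and 5.88 FPKM with hemin. The vehicle libraries lay close together and the hemin libraries were more spread out, with replicate 1 highest. The means were 28.4 ± 1.32 and 8.68 ± 3.41 FPKM and the log2 fold change was -1.64 ± 0.27. Without hemin replicate 1 it was -2.04. Lfng, Mfng and Rfng, the 3 fringe genes, together summed to 46.1 ± 3.99 FPKM with vehicle and 19.1 ± 1.42 FPKM with hemin.

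Notch1, the main receptor of these cells by FPKM, had 27.58, 26.50 and 25.80 FPKM with vehicle and 15.24, 14.20 and 14.00 FPKM with hemin. Both groups were tight and far apart. The means were 26.6 ± 0.897 and 14.5 ± 0.666 FPKM and the log2 fold change was -0.83 ± 0.09, the smallest standard error among the 10 genes. This gene also had the most counts of the 10, at 2274 to 2393 with vehicle and 1199 to 1344 with hemin.

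Notch2 measured 6.71, 6.55 and 8.91 FPKM with vehicle and 6.91, 5.88 and 7.12 FPKM with hemin. The groups overlapped, and vehicle replicate 3 alone stood above the rest. Its log2 fold change was -0.11 ± 0.15, and 0.08 without vehicle replicate 3. Notch1 therefore made up 71.0% ± 1.64 of the summed FPKM of the 4 receptors with vehicle and 58.5% ± 3.07 with hemin, while Notch2 made up 19.7% ± 3.60 and 26.7% ± 1.42. The receptor sum itself was 37.5 ± 0.606 and 24.8 ± 1.25 FPKM.

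The 4 target genes did not move together. Hes5, a repressor that depends on Notch activity in neural progenitors, had 17.10, 25.57 and 20.21 FPKM with vehicle and 3.21, 2.40 and 2.22 FPKM with hemin. Every vehicle library was far above every hemin library. The means were 21.0 ± 4.28 and 2.61 ± 0.527 FPKM, and the log2 fold change of -2.94 ± 0.24 had only 17 tested genes below it. The hemin values rest on 34, 25 and 23 expected counts, against 178, 268 and 214 with vehicle.

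Nrarp, a target whose product feeds back on the pathway by limiting the active receptor fragment, measured 17.05, 18.20 and 13.26 FPKM with vehicle and 3.74, 2.30 and 2.10 FPKM with hemin. The groups were wholly apart, as for Hes5. The means were 16.2 ± 2.58 and 2.71 ± 0.895 FPKM and the log2 fold change was -2.51 ± 0.26, with 40 tested genes below it.

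Hes1, a repressor that other signals besides Notch are known to induce, had 8.47, 11.62 and 10.63 FPKM with vehicle and 11.81, 14.94 and 10.97 FPKM with hemin. Vehicle replicate 2 lay above hemin replicate 3, so the groups overlapped. The means were 10.2 ± 1.61 and 12.6 ± 2.09 FPKM and the log2 fold change was 0.35 ± 0.19.

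Hey1, a repressor of the Hairy-related family, had 17.02, 18.14 and 25.94 FPKM with vehicle and 16.99, 22.60 and 23.46 FPKM with hemin. The ranges nearly coincided. The means were 20.4 ± 4.86 and 21.0 ± 3.51 FPKM and the log2 fold change was 0.09 ± 0.19, which turned to -0.01 without vehicle replicate 1. Hey1 stood in the middle of the 10 genes with vehicle and first with hemin.

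The ratio of Hes5 to Hes1 FPKM shows the split between targets within each library. It was 2.02, 2.20 and 1.90 with vehicle and 0.272, 0.161 and 0.202 with hemin, so the more abundant of the pair was Hes5 in every vehicle library and Hes1 in every hemin library. The ratio of Hes5 to Hey1 averaged 1.06 ± 0.319 and 0.13 ± 0.0514. The ratio of Hey1 to Hes1 averaged 2.00 ± 0.440 and 1.70 ± 0.385 and overlapped between the groups. A ratio within a library does not depend on how libraries were scaled to each other, but it shows unequal change and not which gene of the pair changed.

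**Figure D3:**
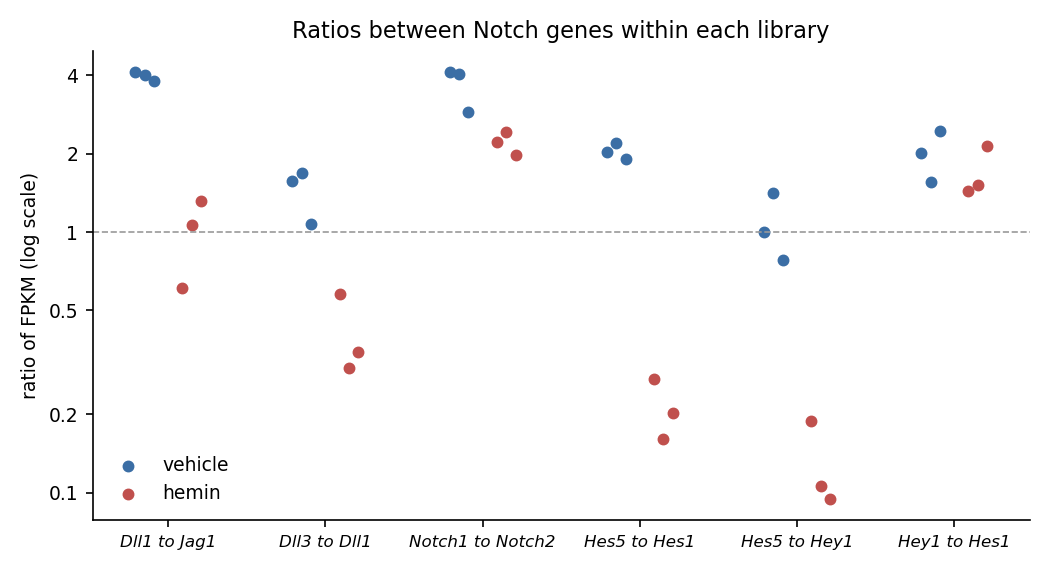
Ratio of FPKM between pairs of Notch genes on a log scale, 1 point per library, with a dashed line at equal levels. Hes5 to Hes1 averages 2.04 with vehicle and 0.212 with hemin, Dll1 to Jag1 averages 3.97 and 0.994, and Hey1 to Hes1 overlaps between the groups.

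Sorted by mean FPKM, the vehicle order was Lfng, Notch1, Dll3, Hes5, Hey1, Dll1 and Nrarp, with the values of each neighbouring pair overlapping, then Hes1 and Notch2, which overlapped each other, and last Jag1, which was below every library of Notch2. With hemin Hey1 stood first and apart, then came Notch1, Hes1, Jag1, Dll1, Lfng and Notch2 with each neighbouring pair overlapping, and then, apart from these, Dll3, Nrarp and Hes5, which overlapped as neighbours.

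**Figure D4:**
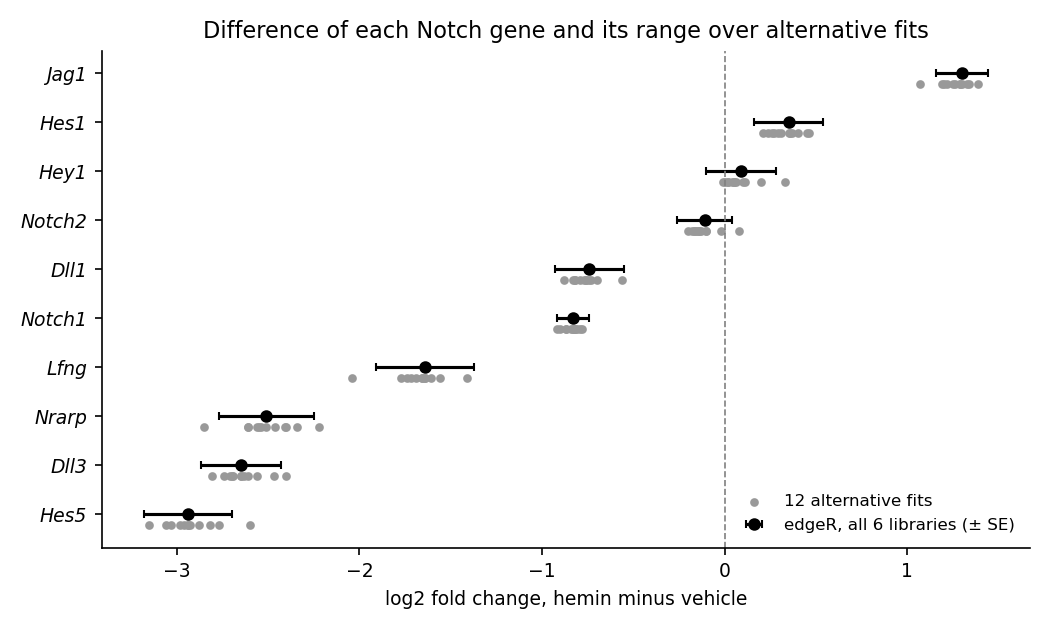
Fitted log2 fold change of each Notch gene, hemin minus vehicle, with its standard error (black), and the values of 12 alternative fits as grey points below it. Hes5 ranges from -3.15 to -2.6, Dll3 from -2.81 to -2.40 and Jag1 from 1.07 to 1.39, while the ranges of Notch2 and Hey1 cross 0.

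The stretch of 250 bases before the start site was available for 8 of the 10 genes in RefSeq's promoter table of build GRCm38.p6, as 9 windows, since Dll1 has 2 start sites there. Hes1 and Hey1 have no entry. The windows were searched on both strands for GTGGGAA, the core that RBPJ binds. It occurs in 5.42% of all 32851 windows of this length and at least 2 times in 0.161%. Hes5 had 2 matches, whose first bases lay 226 bases before the start on the minus strand, where the plus strand reads TTCCCAC, and 83 bases before it on the plus strand. Lfng had 1 match, 109 bases before the start. The other 6 genes, Nrarp among them, had none in these windows, which says only that these letters are not there. GENCODE vM21 marks all 250 bases of the Dll3 window as untranslated region. The same holds for 124 bases of the Jag1 window and 153 bases of 1 of the 2 Dll1 windows. The sequences of Hes5, Lfng and Nrarp are shown because their transcripts were among the 4 lowest fold changes of the 10 genes and they differ in these letters. All are plus-strand genes, written 5′ to 3′, with the matches in capitals, and Lfng is given up to the first base that GENCODE vM21 marks as untranslated region.
Hes5 chr4:154960673-154960922: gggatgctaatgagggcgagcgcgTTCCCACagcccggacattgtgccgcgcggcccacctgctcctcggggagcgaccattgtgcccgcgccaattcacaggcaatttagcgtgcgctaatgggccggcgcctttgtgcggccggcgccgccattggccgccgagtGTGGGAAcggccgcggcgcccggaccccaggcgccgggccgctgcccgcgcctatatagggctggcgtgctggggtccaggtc
Lfng chr5:140607091-140607319: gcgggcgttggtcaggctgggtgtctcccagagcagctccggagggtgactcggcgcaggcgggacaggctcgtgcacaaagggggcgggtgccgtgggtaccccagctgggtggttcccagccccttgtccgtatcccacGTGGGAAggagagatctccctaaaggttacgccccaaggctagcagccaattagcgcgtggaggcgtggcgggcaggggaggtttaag
Nrarp chr2:25180508-25180757: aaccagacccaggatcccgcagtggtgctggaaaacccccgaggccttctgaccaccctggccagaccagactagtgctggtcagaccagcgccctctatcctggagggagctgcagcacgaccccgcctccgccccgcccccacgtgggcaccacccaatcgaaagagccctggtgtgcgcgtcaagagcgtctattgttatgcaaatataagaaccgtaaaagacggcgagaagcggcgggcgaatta

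A list of 61 other genes of the pathway was set beside the members. Of the 55 that were tested, 16 passed the edgeR threshold, 6 higher and 10 lower with hemin. That is 29.1%, beside 31.9% of all tested genes, and their median log2 fold change was 0.04. With libraries scaled by totals alone the split was 3 higher and 13 lower. Leaving out vehicle replicate 1, 2 or 3 or hemin replicate 2 left 9, 8, 10 and 9 genes past the threshold. Calls over all genes fell in the same fits, to 2598 of 13095, 2552 of 13111, 3274 of 13102 and 2890 of 12972 tested. With all libraries they were 4078 of 12782.

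The other canonical ligands were scarce and did not pass. Dll4 averaged 0.770 ± 0.403 and 1.12 ± 0.255 FPKM with vehicle and hemin (edgeR adjusted p = 0.304), and Jag2 averaged 0.913 ± 0.22 and 0.813 ± 0.280 FPKM (adjusted p = 0.802). Of the non-canonical ligands, which lack the domain that activates receptors in the canonical ones, Dner was abundant at 42.7 ± 2.86 and 43.9 ± 7.51 FPKM with a log2 fold change of 0.09 ± 0.12. Dlk1 had a log2 fold change of 0.69 ± 0.68 (edgeR adjusted p = 0.481), which was 0.01 without hemin replicate 3, 1.12 without hemin replicate 1 and 1.56 without vehicle replicate 3, and it passed in no alternative. Dlk2 averaged 1.15 ± 0.167 and 0.400 ± 0.306 FPKM, a log2 fold change of -1.5 ± 0.55 that missed the threshold (edgeR adjusted p = 0.0735). It passed without hemin replicate 3 (edgeR adjusted p = 0.0478) and in limma on log2(FPKM + 1) (adjusted p = 0.0257).

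Notch3 averaged 3.35 ± 0.742 and 3.48 ± 0.514 FPKM, with a log2 fold change of 0.11 ± 0.19 (edgeR adjusted p = 0.704). Notch4, best known from blood vessels, had 25 counts summed over vehicle and 31 summed over hemin and was too scarce to test.

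Of the 4 other genes for receptor glycosylation, 2 fell and 2 did not pass. Rfng, radical fringe, fell from 15.5 ± 2.43 to 8.91 ± 1.56 FPKM, a log2 fold change of -0.75 ± 0.17 (edgeR adjusted p = 0.0138). Pofut1, which puts on the fucose that fringe enzymes extend, fell from 6.08 ± 0.706 to 3.59 ± 0.391 FPKM, a log2 fold change of -0.71 ± 0.15 (edgeR adjusted p = 0.0121). Without vehicle replicate 2 the edgeR adjusted p-values were 0.0655 and 0.0541.

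Ubiquitin ligases of the Neuralized family drive ligand endocytosis, the pull that lets a bound ligand activate its receptor. Both tested members of the family fell 2.70-fold, and the other of the 3 tested genes for this step did not pass. Neurl1a went from 1.36 ± 0.104 to 0.517 ± 0.0551 FPKM (edgeR adjusted p = 0.0044) and Neurl1b from 3.83 ± 1.13 to 1.35 ± 0.540 FPKM (edgeR adjusted p = 0.0182). Neurl1b missed the threshold without vehicle replicate 1 (edgeR adjusted p = 0.0613) or hemin replicate 2 (edgeR adjusted p = 0.059). Mib1, the main ligase for this step in many tissues, was listed at 0 in 5 libraries and with 50 counts in hemin replicate 2, and such zeros can be failed estimates.

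Among the genes of receptor cleavage, Aph1b and Adam10 fell. Aph1b, a gamma-secretase subunit, fell from 10.1 ± 0.892 to 6.39 ± 0.214 FPKM, a log2 fold change of -0.61 ± 0.12 (edgeR adjusted p = 0.00729). Adam10, the protease of the first cut, fell from 40.8 ± 1.65 to 29.3 ± 4.18 FPKM (edgeR adjusted p = 0.0463). Without vehicle replicate 1, 2 or 3 or hemin replicate 2 or 3, Adam10 did not pass (edgeR adjusted p = 0.123, 0.132, 0.0862, 0.111 and 0.073).

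Of 10 genes for receptor trafficking and turnover, 3 rose and 1 fell. Dtx1, a Deltex ubiquitin ligase that is itself a Notch target in some cells, fell 2.05-fold, from 8.96 ± 0.650 to 4.23 ± 0.741 FPKM (edgeR adjusted p = 0.00288). Numbl, a relative of the Notch antagonist Numb, rose 1.92-fold, from 6.62 ± 1.05 to 12.3 ± 1.07 FPKM (edgeR adjusted p = 0.00479). Dtx2 rose 1.49-fold (edgeR adjusted p = 0.0404) and missed the threshold in 11 of 12 alternatives, each single-library omission among them, with adjusted p-values up to 0.0975. Itch, a ubiquitin ligase that acts on Notch, was named after its values were seen. It rose 1.35-fold (edgeR adjusted p = 0.0319), and missed the threshold in 7 of 12 alternatives, without vehicle replicate 1, 2 or 3 or hemin replicate 1 or 2 among them, with adjusted p-values up to 0.107.

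In the nucleus, Maml2, a Mastermind-like coactivator of the receptor complex, fell 3.11-fold. It measured 22.50, 25.08 and 23.76 FPKM with vehicle and 6.07, 9.21 and 7.79 FPKM with hemin, a log2 fold change of -1.64 ± 0.14 (edgeR adjusted p = 0.000463). Crebbp, an acetyltransferase recruited by many activators, rose 1.93-fold, from 3.15 ± 0.402 to 5.86 ± 0.916 FPKM (edgeR adjusted p = 0.0044). The other 6 of 8 activation genes did not pass. Rbpj itself averaged 17.8 ± 1.24 and 22 ± 4.40 FPKM, a log2 fold change of 0.36 ± 0.17 (edgeR adjusted p = 0.136), and passed without hemin replicate 3 (edgeR adjusted p = 0.0479, against up to 0.265 in the other alternatives).

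Among the genes of the repressor complexes, Ctbp1, a corepressor, fell 1.32-fold (edgeR adjusted p = 0.02), and Hdac2, a histone deacetylase, rose 1.28-fold (edgeR adjusted p = 0.0297). Neither passed without vehicle replicate 1, 2 or 3 or hemin replicate 2, where the edgeR adjusted p-values were 0.0735, 0.0857, 0.0834 and 0.0574 for Ctbp1 and 0.0869, 0.0702, 0.0929 and 0.101 for Hdac2. Hdac2 missed the threshold in 8 of 12 alternatives in all, the others being edgeR with total counts alone (adjusted p = 0.0807), edgeR with no filter (adjusted p = 0.0593) and limma on log2(FPKM + 1) and log2(FPKM + 0.1) (adjusted p = 0.0608 and 0.0634).

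Of the other Hes and Hey genes, Hes6, known as an inhibitor of Hes1, averaged 26.3 ± 1.96 and 20.9 ± 4.99 FPKM (edgeR adjusted p = 0.265), and Hey2 averaged 1.25 ± 0.127 and 1.18 ± 0.225 FPKM (edgeR adjusted p = 0.945). Hes2, Hes3 and Hes7 had 3 counts or fewer in either group, and Heyl had 25 and 26, so these 4 were not tested. All Hes and Hey genes together summed to 79.5 ± 6.09 FPKM with vehicle and 58.6 ± 8.89 FPKM with hemin.

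**Figure D5:**
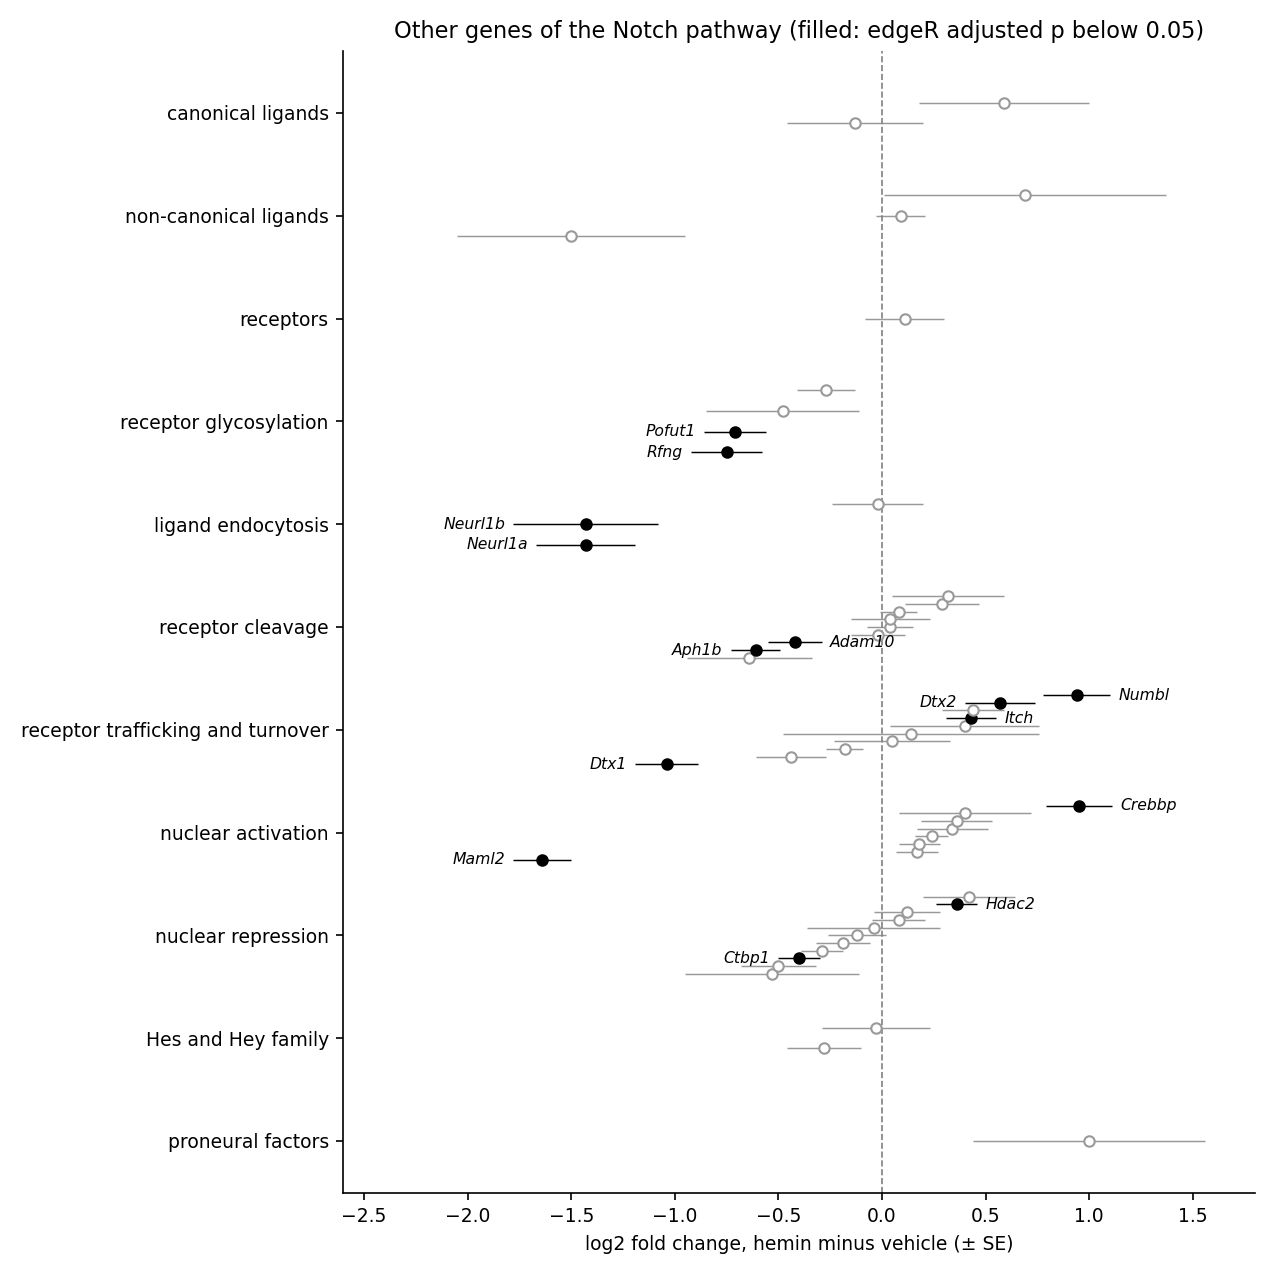
Fitted log2 fold change with its standard error for the tested pathway and proneural genes outside the 10 that are described here or did not pass, by role. Filled points with names passed the edgeR threshold. Maml2 at -1.64 and Crebbp at 0.95 are the lowest and highest of the pathway genes.

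Proneural factors are repressed by Hes proteins. Neurog2 averaged 0.510 ± 0.15 and 1.00 ± 0.718 FPKM (edgeR adjusted p = 0.216). Neurog1 and Atoh1 had no counts with vehicle and 4 and 12 counts summed over hemin, too few to test.

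Markers of cell types were set beside the Notch genes, and their sums did not all move the same way. The summed FPKM of 8 progenitor markers was 1210 to 1450 with vehicle and 389 to 592 with hemin, and 7 of the 8 fell. The 8 neuronal markers summed to 189 to 210 and 107 to 148, with 1 higher and 2 lower past the threshold. The 7 astrocyte markers summed to 376 to 445 and 324 to 407, with Gja1 higher and 3 lower. The 6 radial glial markers summed to 4370 to 5040 and 3550 to 4960, with Vim higher. Microglial markers summed to 6.60 to 12.3 and 16.4 to 17.5. All 5 tested had positive log2 fold changes, from 0.72 to 1.09, and 1 of them passed the threshold. Tmem119, not tested, was below 0.5 FPKM in every library, with 1 count summed over vehicle and 13 over hemin.

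The 6 endothelial markers, of a cell type that the CD140a beads do not select for, summed to 1.23 to 1.77 FPKM with vehicle and 5.02 to 6.03 FPKM with hemin. Pecam1, Kdr and Tek rose, 3 of 4 tested, Pecam1 from 0.153 ± 0.0153 to 2.34 ± 0.668 FPKM (edgeR adjusted p = 0.00042). The other tested marker, Flt1, had a log2 fold change of 0.55 ± 0.23 and did not pass (edgeR adjusted p = 0.113). Cdh5 and Cldn5 stayed below 0.5 FPKM in every library and were too scarce to test. The 6 mural and fibroblast markers summed to 5.15 to 11.1 and 7.58 to 16.7 FPKM, with a median log2 fold change of 0.58 over the 5 tested. The part of these markers' cells in the Notch values was not tested.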

How the data were processed

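RNA was sequenced in 3 vehicle and 3 hemin libraries, grouped by their treatment labels. Bowtie 0.12.2, RSEM with no version stated, and builds mm8 and mm9 with no stated role are listed in the submitters' processing notes. Per the file headers, the deposited tables give each transcript's expected count, the authors' estimate of its reads, and its FPKM, scaled by the authors for length and depth. Tables of unannotated features were not used.

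Transcripts were summed per gene, with an unlisted gene set to 0, and 18710 of 18749 genes matched a symbol in RefSeq's gene table of GRCm38.p6. Each member rests on 1 transcript. Expected counts were rounded, filtered with filterByExpr, scaled by TMM and compared in edgeR 4.0.16 (R 4.3.3) by glmQLFit and glmQLFTest, two-sided, with adjustment over 12782 genes. Standard errors are the log2 fold change over the square root of F. The biological coefficient of variation was 0.208. Calculations were tested on simulated data. Alternatives were DESeq2 1.42.0, total counts alone, limma 3.58.1 with trend on log2(FPKM + 1) or log2(FPKM + 0.1), no filter, a replicate block and leaving out each library. With 3 libraries against 3 an exact permutation test cannot go below 0.1, so none was used.

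The members and lists were chosen with earlier results of these data known. Named were all members, every ligand, receptor, Hes, Hey and proneural gene of the lists, and in each other role the genes past the threshold if 3 or fewer, otherwise the 2 with the largest fold in each direction. Itch, Rbpj and Mib1 were added after their values were seen, and no rule set which marker genes were named. Strandedness of the libraries is not stated. A ± is the SD over 3 libraries for FPKM, shares and ratios, and the SE for log2 fold changes. Some genes of these lists are not reported here.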

Additional observations from a re-analysis of the deposited data

How the results depend on the processing

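The 10 Notch genes were refitted under 12 alternatives. The same 7 were past the threshold under DESeq2, total counts alone, limma with either pseudocount, no filter, the replicate block and without any hemin library, and 6 of them without any vehicle library, where Dll1 missed it. Log2 fold changes ranged from -3.15 to -2.6 for Hes5, -2.85 to -2.22 for Nrarp, -2.04 to -1.41 for Lfng and 1.07 to 1.39 for Jag1. Over all genes, 4231 passed with DESeq2, 4296 with total counts alone, 4261 and 4177 with limma, 4116 with no filter and 3731 with the replicate block. Leaving out 1 library gave 2552 to 4530, with 2598 and 2552 without vehicle replicates 1 and 2 and 4530 without hemin replicate 1. Among the other pathway genes, leaving out 1 library gave 8 to 16 and the replicate block 15, with Dtx2 lost. With no filter Atoh1 was tested and passed as higher, on 4 counts in each hemin library and none with vehicle. Neurog2 did not pass in that fit (edgeR adjusted p = 0.265). Dner turned to -0.0026 with total counts alone. Leaving out 1 library moved log2 fold changes across 0 for genes that passed in no such fit: -0.18 to 0.08 for Notch2, -0.01 to 0.33 for Hey1, -0.40 to 0.05 for Jag2, -0.04 to 0.22 for Notch3 and -0.12 to 0.09 for Hey2. The cause was not tested. Among the genes named outside the 10, Neurl1a, Aph1b, Dtx1, Numbl, Maml2 and Crebbp passed in all 12 alternatives. The replicate numbers are not said to mark a shared animal or day, and deviations of same-numbered libraries correlated at 0.0647, 0.0998 and 0.158. Each library correlated best with its own number, a hint from the data and not from the design. Median log2 fold changes over all tested genes moved by at most 0.09. Depth limits Hes5 with hemin, which rests on 23 to 34 counts a library, and the genes too scarce to test. It also limits tested genes with fewer counts. Neurl1a rests on 16 to 19 and Dlk2 on 1 to 8 counts a library with hemin. Pecam1 rests on 4 to 5 and Tek on 1 to 2 counts a library with vehicle.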
